A study of Mus musculus with 2 samples.

Results

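The genes described here are IL-2 and the effector cytokines of T cells: Il2, Ifng, Tnf, Lta, Il4, Il13, Il17a, Il21, Csf2 and Fasl. They were taken by name, as every probe set that the array's annotation assigns to 1 of these genes alone, which gave 12 probe sets for 10 of the 18193 genes measured. Total RNA came from mouse regulatory T cells (Tregs) that had been induced in vivo through dendritic cells (DCs) and taken ex vivo after immunization. Hopx-/- cells lack Hopx, a small homeodomain protein that does not bind DNA itself, and Hopx-sufficient cells carry it. Cells of both genotypes had been sorted as positive for CD25 and Foxp3, and 1 single-colour Affymetrix array was hybridised for each. The deleted part of Hopx, the strain and age of the mice, the immunizing antigen and the number of mice or sorts behind an array are not given in the sources used here.

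IL-2 is the growth factor that activated T cells make for themselves and their neighbours. Tregs carry its high-affinity receptor, depend on IL-2 made by other cells, and keep their own Il2 gene and most effector cytokine genes down, in part through Foxp3. Transcription of Il2 in conventional T cells needs the factors NFAT, AP-1 and NF-kB together, and Foxp3 binds NFAT at the same promoter. Hopx has been linked to AP-1 in DC-induced Tregs, so the comparison asks whether these cells differ in the cytokine genes that AP-1 and its partners act on.

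The deposited table holds, for each probe set, its distance on each array from the mean of the 2 arrays. It therefore gives differences between the genotypes and not expression levels. In RNA from a whole sorted population, fewer cells making a cytokine and less RNA per cell cannot be told apart. A difference below is the log2 difference, Hopx-/- minus Hopx-sufficient, centred on the median of all probe sets with 1 gene symbol, and the value of a gene is the mean over its probe sets. With 1 array for each genotype there is no replicate error and no test. The yardstick used here is the spread between probe sets of the same gene (SD 0.18 over 9010 genes). It covers disagreement between probes that read the same RNA and leaves out variation between mice or sorts. Hopx itself was 35.6-fold lower on the Hopx-/- array, with probe sets at -4.87 and -5.44. Foxp3, which was used in the sort, differed by 0.28, and of the Treg markers 9 of 11 were above 0 (median 0.33), led by Nrp1 at 0.53, Gpr83 at 0.49 and Itgae at 0.39. Whether such markers were expressed at all cannot be read from differences. Bacterial and phage spike-ins added at hybridization (18 probe sets), which likewise carry no variation between mice or sorts, ranged from -0.22 to 0.01. Their median was -0.12, further from 0 than most of the member differences.

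The 3 lowest members were Il2, Fasl and Ifng, and the other 7 lay within 0.10 of 0. The upstream sequences of Il2, Ifng and Fasl are shown first, because they were the lowest members and because the Il2 promoter is a textbook case of joint control by NFAT and AP-1. Each line gives the 250 bases before the start site, read 5′ to 3′ on the strand of the gene, from RefSeq on build GRCm38.p6. Capitals mark the core bases GGAAA, or TTTCC on the other strand, which NFAT recognises.
Il2, chr3:37125955-37126204, minus strand: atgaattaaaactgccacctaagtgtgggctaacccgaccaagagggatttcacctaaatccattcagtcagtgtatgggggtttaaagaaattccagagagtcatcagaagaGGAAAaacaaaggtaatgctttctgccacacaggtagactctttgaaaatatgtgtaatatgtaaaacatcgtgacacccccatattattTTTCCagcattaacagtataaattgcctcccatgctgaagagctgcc
Ifng, chr10:118440796-118441045, plus strand: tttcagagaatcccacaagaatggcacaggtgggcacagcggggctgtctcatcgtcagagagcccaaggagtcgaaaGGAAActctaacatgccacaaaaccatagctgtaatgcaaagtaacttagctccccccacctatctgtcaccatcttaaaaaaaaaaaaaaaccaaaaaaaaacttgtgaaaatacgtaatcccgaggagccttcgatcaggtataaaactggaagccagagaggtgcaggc
Fasl, chr1:161788496-161788745, minus strand: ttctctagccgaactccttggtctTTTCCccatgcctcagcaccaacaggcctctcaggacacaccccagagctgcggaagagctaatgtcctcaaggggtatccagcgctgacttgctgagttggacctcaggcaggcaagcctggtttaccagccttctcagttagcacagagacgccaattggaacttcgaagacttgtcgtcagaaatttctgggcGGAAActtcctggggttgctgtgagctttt
The core motif begins 137 and 47 bases before the start site in Il2, 172 bases before it in Ifng, and 226 and 30 bases before it in Fasl. It is common: 55.6% of the 32851 mouse upstream windows of this length in the RefSeq table hold GGAAA on either strand. Of the members whose differences were near 0, Tnf and Il21 have 3 matches each, Lta and Csf2 have 2 each, Il13 has 4, and Il17a has none. Il4 has 2 listed start sites, with 5 matches upstream of 1 of them and 0 upstream of the other. The AP-1 motif TGANTCA, which reads the same on both strands apart from its middle base, stands in 6.75% of all windows and, among the members, in that of Il17a alone. Only exact matches within the 250 bases were counted. AP-1 sites that depart from this motif or lie further away were not searched for, in Il2 or any other member. TATAAA or its reverse complement stands in 12.4% of windows. It begins 31 bases before the start site in Il2 and 30 bases before it in Ifng, close to the usual place of a TATA box. The window of Fasl holds none. Among members near 0, it begins 29 bases before the start site in Tnf, 31 in Il17a and 31 and 29 in Il13. In Lta it begins 167 bases before the start site, and the windows of Il4, Il21 and Csf2 hold none. Matches to GGAAA were thus found in the 3 lowest members and in most of the others.

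Il2 was 1.32-fold lower on the Hopx-/- array, the lowest of the 10. Its probe set read -0.20 on the Hopx-/- array and 0.20 on the Hopx-sufficient array, a centred difference of -0.40. Of all genes, 4.24% lay lower still. That value rests on 1 probe set. A second probe set is annotated to both Ntan1, an enzyme gene of protein turnover, and Il2, and was therefore not counted for either. It read 0.05 on the Hopx-/- array and -0.05 on the Hopx-sufficient array, a difference of 0.09, on the other side of 0. Its suffix marks probes that can match unrelated sequences. With it included, the mean of Il2 was -0.16, and Fasl was then the lowest of the 10. The gap of 0.49 between these probe sets was wide: among 4695 genes with exactly 2 probe sets, 6.26% had a gap as large.

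**Figure D1:**
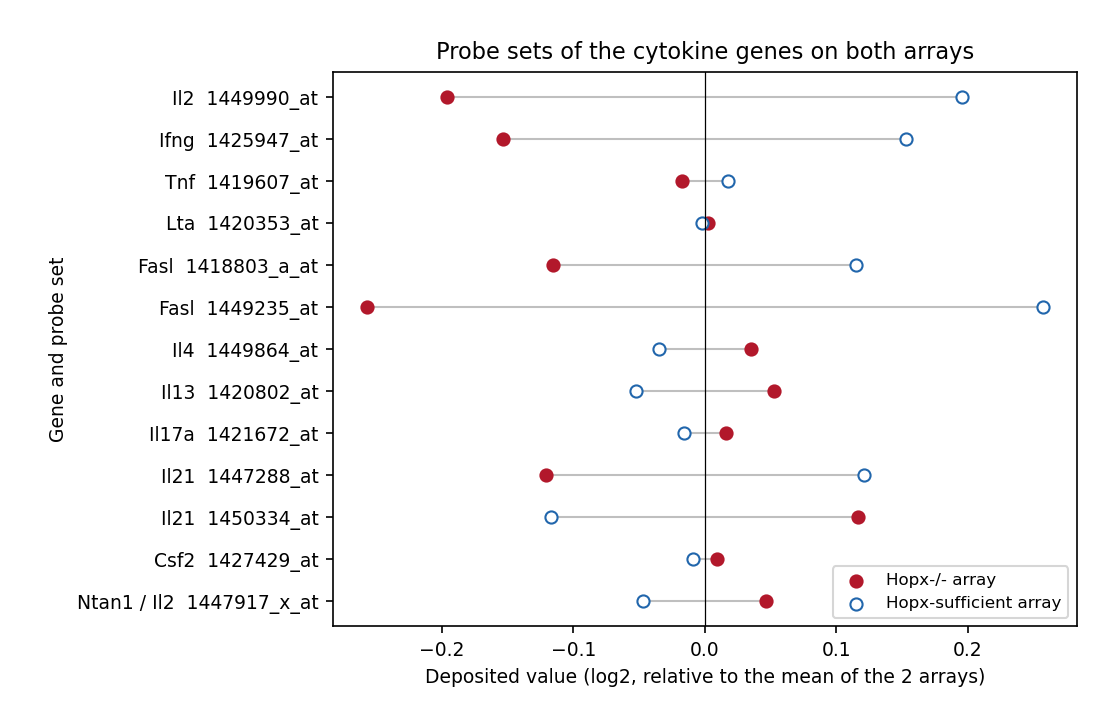
The horizontal axis gives the deposited log2 value of each probe set on the Hopx-/- array (filled) and on the Hopx-sufficient array (open), relative to the mean of both, and each row is a probe set. Il2, Ifng and both Fasl rows have the Hopx-/- point on the left, the 2 Il21 rows point opposite ways, and the bottom row is the probe set that Il2 shares with Ntan1.

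Fasl encodes the death ligand of the TNF family that T cells use to kill cells bearing Fas. It was 1.30-fold lower by its mean, at -0.38. Its 2 probe sets agreed in direction, the first reading -0.12 on the Hopx-/- array and 0.12 on the Hopx-sufficient array and the second -0.26 on the Hopx-/- array and 0.26 on the Hopx-sufficient array. Their centred differences were -0.24 and -0.52. It was the only member with more than 1 probe set whose probe sets lay on the same side of 0.

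Ifng encodes interferon-gamma, the main macrophage-activating cytokine of Th1 cells. Its 1 probe set read -0.15 on the Hopx-/- array and 0.15 on the Hopx-sufficient array, a centred difference of -0.31. That is 1.24-fold lower, just short of the log2 difference of 0.32 used as a rule of size, while Fasl, at 1.30-fold, was the member just past it. Of all genes, 7.23% lay lower than Ifng.

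Tnf and Lta, the other members of the TNF family, were close to 0. Tnf, the inflammatory cytokine released early by many effector cells, read -0.02 on the Hopx-/- array and 0.02 on the Hopx-sufficient array (difference -0.04). Lta, encoding lymphotoxin-alpha, read 0.0022 on the Hopx-/- array and -0.0022 on the Hopx-sufficient array, and its centred difference was -0.0031. Centring alone put it below 0. Ltb, which lies next to Tnf and encodes the membrane partner of lymphotoxin-alpha, differed by 0.16.

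Il4 and Il13, the members made by Th2 cells, were slightly above 0. Il4, which drives Th2 differentiation and antibody class switching, read 0.04 on the Hopx-/- array and -0.04 on the Hopx-sufficient array (difference 0.06). Il13, a relative of Il4 that acts on epithelium and smooth muscle, read 0.05 on the Hopx-/- array and -0.05 on the Hopx-sufficient array (difference 0.10), the highest of the 10. Both values were smaller than the SD between probe sets of a gene. Il5 and Il3, from the same gene cluster, differed by -0.04 and 0.11.

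Il17a, the neutrophil-recruiting cytokine of Th17 cells, differed by 0.02, with 0.02 on the Hopx-/- array and -0.02 on the Hopx-sufficient array. Csf2, encoding GM-CSF, a growth factor of myeloid cells made by activated T cells, differed by 0.01 and read 0.0092 on the Hopx-/- array and -0.0092 on the Hopx-sufficient array. Il21, the cytokine of follicular helper T cells that promotes B cell responses, had a mean of -0.01 that hides a disagreement. One of its probe sets read -0.12 on the Hopx-/- array and 0.12 on the Hopx-sufficient array (difference -0.25), and the other read 0.12 on the Hopx-/- array and -0.12 on the Hopx-sufficient array (difference 0.23). Of genes with exactly 2 probe sets, 6.67% had a gap as large as this one (0.48). The direction of Il21 cannot be given from these values.

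If the values were stored in single precision and centred by plain subtraction, which the sources do not state, the finest step of a number bounds the uncentred value. The bounds below are inferred in this way, within a rounding tolerance that some values can meet by accident, and are not measured levels. By that step, the Il21 probe set at -0.25 would have an uncentred log2 value below 4 on the Hopx-/- array, a bound that 6.85% of all probe sets showed. Other probe sets can lie below 4 without showing it, so this is not the share with low values. The Il13 and Csf2 probe sets would have values below 8 on the Hopx-sufficient array, a bound that 34.6% of all probe sets showed and that is no mark of a low signal. The steps give no bound for the other members, so whether Il2, Ifng or Fasl was detected on either array is unknown.

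Across the members, 6 lay below 0 and 4 above, beside 49.9% of all genes below 0 and 50.1% above. The median of the 10 was -0.0074, beside 0.00078 for all genes. Lower by at least 0.32 were 2 members, Il2 and Fasl, where 6.93% of all genes met this rule, and 0 members were higher by at least 0.32, where 4.09% of all genes were. No member was 1.5-fold apart (1.31% of genes lower, 0.297% higher). Il2, Fasl and Ifng made up the low end among them.

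**Figure D2:**
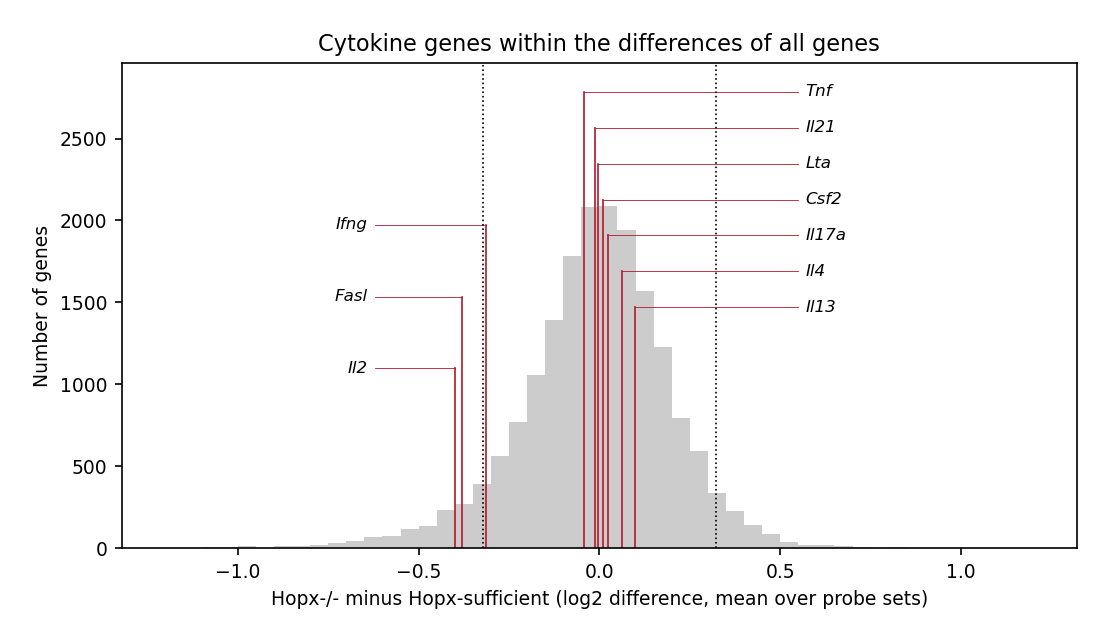
The grey bars count genes by their log2 difference, Hopx-/- minus Hopx-sufficient, in steps of 0.05 between -1.2 and 1.2, the red lines mark the 10 cytokine genes and the dotted lines mark differences of 0.32 either way. Il2 and Fasl lie left of the lower dotted line and Ifng just inside it, while the other 7 genes sit in the centre.

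Among 24 other measured cytokines and TNF family ligands of T cells, 16 were above 0 and 8 below, with a median of 0.11. Lif and Il12a were the only ones at least 1.5-fold apart. Lif, a cytokine of the IL-6 family, had a mean of -0.67 from probe sets at -1.38 and 0.04, so 1 probe set carried it. Il12a, which encodes a subunit shared by IL-12 and the Treg cytokine IL-35, was 1.55-fold lower by 1 probe set, whereas Ebi3, the other subunit of IL-35, differed by 0.08. The chemokine gene Ccl3 was highest of the list, at 0.50. Il17f, Il22 and Areg were not analysed here.

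Receptors for the members showed small differences: 11 of 17 measured were above 0, with a median of 0.08. The IL-2 receptor subunits Il2ra (CD25, used in the sort) and Il2rb differed by -0.06 and 0.25, and the common gamma chain was not analysed here. Ifngr1, the ligand-binding chain of the interferon-gamma receptor, was at 0.28, and Il17rc, a subunit of the IL-17 receptor, at 0.29. Fas, the receptor for the Fasl product, was at 0.0022. The GM-CSF receptor genes Csf2ra and Csf2rb were at -0.10 and, by its mean, -0.03. Csf2rb2, a related mouse beta chain gene kept in the list, was 1.60-fold lower, the only gene of the list past 1.5-fold. It is closely similar to Csf2rb, whose 2 probe sets read -0.41 and 0.35, and the array may not separate them.

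Of the 39 measured transcription factors that act on cytokine genes 28 were above 0, with a median of 0.11. Fos, a subunit of AP-1, was the most different of these and the only one past 1.5-fold, at 2.15-fold higher. Of the NFAT genes, Nfatc1 was at 0.11, Nfatc2 at -0.06 and Nfatc3 at 0.18, and Gata3, the Th2 factor, was at 0.15. Tbx21, encoding the Th1 factor T-bet, which acts on Ifng, was 1.47-fold lower by 1 probe set. Fosl2, another AP-1 subunit, was at -0.51 from probe sets at -0.88 and -0.14.

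Many cytokine messages carry AU-rich elements through which decay factors shorten their life. Of 13 regulators of cytokine mRNA decay and translation 8 were above 0. Zfp36, encoding tristetraprolin, which destabilises Tnf and Il2 messages among others, was 1.53-fold higher, and Zc3h12d, of the Regnase family, was 1.41-fold higher. Hnrnpd, an AU-rich element binding protein also known as AUF1, was 1.26-fold lower. The median was 0.10.

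**Figure D3:**
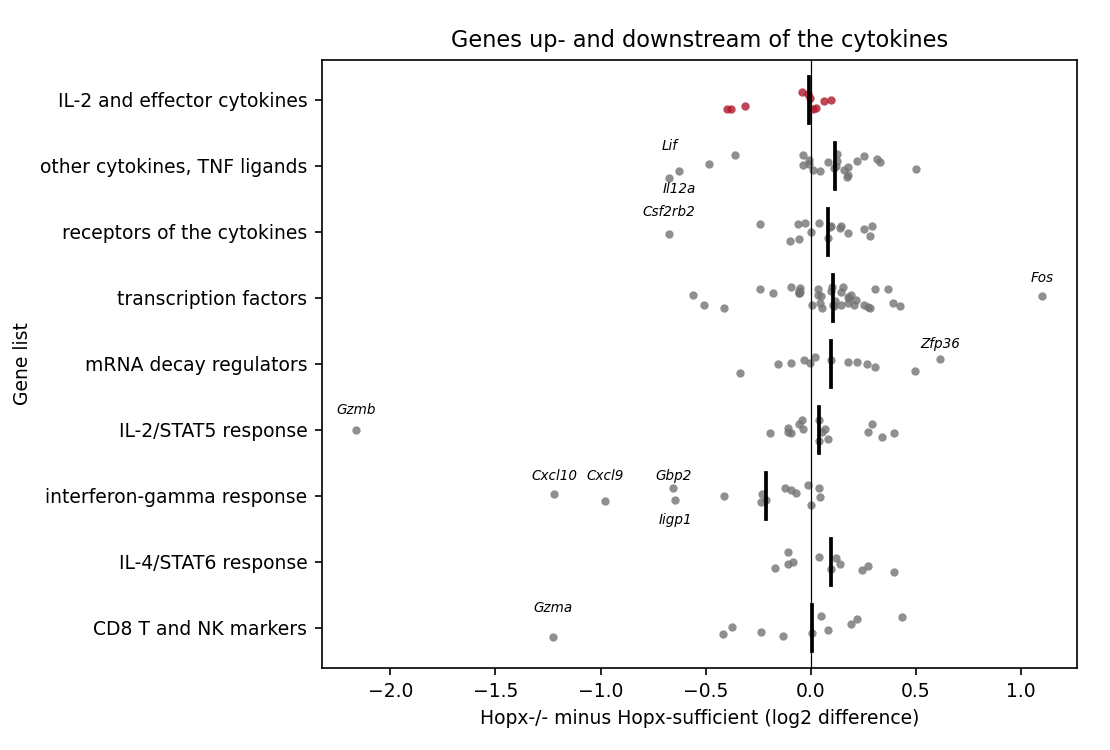
Each point is a gene, placed by its log2 difference, Hopx-/- minus Hopx-sufficient, each row is a gene list, the black bar is its median and genes at least 1.5-fold apart are named; vertical scatter within a row has no meaning. The interferon-gamma response row is shifted to the left (median -0.21), while the IL-2/STAT5 row is centred near 0 apart from Gzmb.

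Lists of genes that respond to IL-2, interferon-gamma and IL-4 were read in the same way, and whether they follow their ligands was not tested. Of 17 genes of the IL-2 and STAT5 response, 9 were above 0 and 8 below (median 0.04). Gzmb, the cytotoxic protease granzyme B, was 4.48-fold lower, but Bcl2, a survival gene, was at 0.40 with all 5 probe sets between 0.29 and 0.50. Socs3, a feedback inhibitor, was at 0.34, and Cish, the classical STAT5 target, at -0.11. In the interferon-gamma response, 12 of 15 measured genes were below 0 (median -0.21) and 4 were at least 1.5-fold lower: Cxcl10 (2.33-fold), Cxcl9 (1.97-fold, probe sets at -1.67 and -0.29), Gbp2 (1.57-fold) and Iigp1 (1.56-fold). Cxcl10, Gbp2 and Iigp1 are also induced by type I interferon, so the list does not separate the ligands. Irf1, an early target of interferon-gamma, differed by -0.01. Of 11 IL-4 and STAT6 response genes, 7 were above 0 (median 0.10), led by Gfi1, a repressor induced in Th2 cells, at 0.39, the survival gene Mcl1 at 0.27 and the chemokine receptor gene Ccr4 at 0.24.

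Ifng and Fasl are also made by CD8 T and NK cells, which the sort should leave out. Of 11 measured markers of those cells 6 were above 0 and 5 below (median 0.0068). Gzma was at -1.23, Klrd1 at -0.42 and Klrk1 at -0.37, whereas Nkg7 was at 0.43 and the perforin gene Prf1 at 0.08. Of T cell markers 7 of 9 were above 0 (median 0.22), led by Cd28 at 0.33, Cd5 at 0.32 and Cd3g at 0.28. Of DC and macrophage markers 10 of 16 were above 0 (median 0.26, between -0.38 and 0.89), the mannose receptor gene Mrc1 being 1.85-fold higher, with Cd14 at 0.50 and C1qb at 0.41. The 6 below 0 were Lyz2 at -0.38, Itgam at -0.16, Itgax at -0.11, Mpeg1 at -0.05, Flt3 at -0.05 and Zbtb46 at -0.0027. Mast cells and basophils can make Il4 and Il13, and 6 of their 8 markers were above 0 (median 0.11), the most different being Mcpt4 at 0.34, Fcer1a at -0.18 and Ms4a2 at 0.12. All 9 measured B cell markers were below 0 (median -0.21, between -0.48 and -0.07), the lowest being Fcmr at -0.48, Cd79a at -0.41 and Ebf1 at -0.40. The table holds no levels, so summed marker levels cannot be given, and the part of these cells in the cytokine values was not tested.

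Several of the members are neighbours on their chromosomes: Il2 with Il21, Tnf with Lta, and Il4 with Il13. The 5 protein-coding genes on each side of each member, in the gene order of the mouse assembly GRCm38.p6, gave 68 other genes, of which 59 were measured. Of these, 33 were above 0 and 26 below, with a median of 0.02. Lower by at least 0.32 were 7, where 6.93% of all genes met this rule, and higher by at least 0.32 were 2, where 4.09% did. Next to Il2, Adad1, a testis-expressed gene, was at -0.33 and, 3 genes to the other side, Bbs12 was at -0.44. Il21, between Il2 and Bbs12, was at -0.01. Nup107, a nuclear pore gene near Ifng, was at -0.44, Bag6 near Tnf at -0.33 and Spata5 near Il21 at -0.35. Mcm3, a subunit of the replicative helicase that lies 2 genes from Il17a, was lower by 1.52-fold, its 5 probe sets lying between -0.70 and -0.52. Around Csf2, whose own difference was 0.01, P4ha2, a collagen prolyl hydroxylase gene next to it, was 1.66-fold higher by 1 probe set and Rapgef6, 5 genes away, was 1.38-fold higher with its 5 probe sets between 0.36 and 0.66. Meikin, a meiotic gene of the same stretch, was at -0.40.

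**Figure D4:**
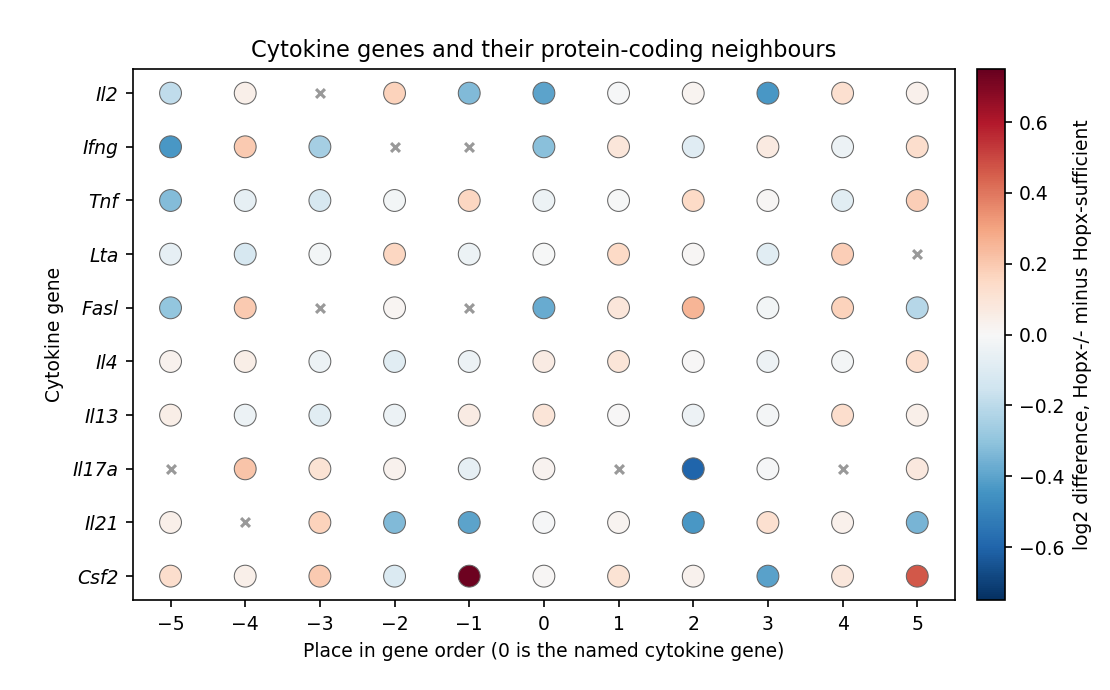
Each row is a cytokine gene with 5 protein-coding neighbours on each side in gene order, coloured by log2 difference, Hopx-/- minus Hopx-sufficient (red higher, blue lower), and a cross marks a gene not analysed here. The darkest neighbours are P4ha2 beside Csf2 (0.73) and Mcm3 beside Il17a (-0.60), while Csf2 (0.01) and Il17a (0.02) themselves are near white.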

How the data were processed

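The values that the authors deposited are of a log2 type and express each array as its distance from the average of both, as a check of the columns showed: they mirror each other within 1e-06. The sources used here do not state the summarisation, the normalization or the log base, and base 2 was assumed. Natural logs would enlarge each difference by a factor of 1.44. The number of arrays limits the precision, and no p-value was computed.

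Probe sets were named by the platform annotation of 2016, with symbols updated by gene ID (34741 of 34945 probe sets with 1 symbol were found in the RefSeq gene table of GRCm38.p6). A further 932 with several symbols, 9160 with none and 64 controls were left out of gene values. Differences (Hopx-/- minus Hopx-sufficient) were centred on their median, 0.0075, and averaged per gene. A log2 difference of 0.32 and a fold of 1.5 were rules of size.

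The members, lists and folds were chosen with earlier results of these data known. Genes named are the 10 members, Hopx, Foxp3 and Il2ra, the 3 most different genes of each list, all at least 1.5-fold apart, and neighbours at least 0.32 apart. Others (Ltb, Il3, Il5, Il9, Il10, Ebi3, Il2rb, Fas, Csf2ra, Csf2rb, Nfatc1, Nfatc2, Nfatc3, Cish, Irf1, Klrk1, Prf1, Lyz2, Itgam, Itgax, Mpeg1, Flt3, Zbtb46, Ccl5, Xcl1 and Tnfsf9, and Gata3) were chosen after their values were seen. Gene averaging and centring were checked on the deposited differences, shuffled among probe sets, with known shifts added to some genes. That checks the arithmetic and not the choice of method. Alternatives were no centring, other probe set summaries, removal of cross-hybridising or finest-step probe sets, natural logs, old symbols, other folds, and lists without shared genes. Python 3.11.15, numpy 2.4.6, pandas 2.3.3 and matplotlib 3.10.9 were used.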

Additional observations from a re-analysis of the deposited data

How the results depend on the processing

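No paired analysis was possible because a single array stands for a genotype, which also leaves no array to omit. Of 147 recomputed values, 138 moved by less than the SD between probe sets of a gene, or, for counts, by no more than 1.5 times. Many of them could not have moved further. A member with 1 probe set has the same value under every probe set summary, and leaving out the centring shifts each gene by 0.0075. The share that stayed is therefore no measure of how firm the member values are. The count of members lower by at least 0.32 was 2. It was 1 with the probe set shared by Ntan1 and Il2 included, an alternative added after seeing the data that put Il2 at -0.16, and 0 at folds of 1.5 and 2. It was 3 at a fold of 1.1 and with natural logs, where Ifng joined Il2 and Fasl. Without centring, 5 members were below 0 instead of 6, Lta being the one that crossed 0. Il21 was at -0.25 when its most different probe set stood for it and at 0.22 without probe sets of the finest value steps, also added after seeing the data. The median of the members stayed between -0.02 and 0.0011 under all these settings. Hopx was at -5.15, and at -5.44 by its most different probe set, -4.88 without probe sets that can cross-hybridise and -7.44 with natural logs. The median of the CD8 T and NK markers was -0.13 without genes shared with other lists.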

Other observations

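Il10, a suppressive cytokine of many Tregs, and Il9 each have 1 probe set, and its deposited value was 0 on the Hopx-/- array and 0 on the Hopx-sufficient array. Such exact zeros occur in 972 probe sets, 2.16% of the 45101, and a further 34.1% share their exact value with at least 1 other probe set. Among the cytokine genes described here, the value of the Il4 probe set recurs in 6 other probe sets, that of Ifng in 2 and that of Il13 in 1. What makes values recur cannot be told from a table without levels.

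Beyond the genes named with the other cytokines, the chemokine gene Ccl5 was at 0.33, while Xcl1, a chemokine gene that attracts cross-presenting DCs, was at -0.36 and Tnfsf9, encoding the ligand of the costimulatory receptor 4-1BB, at -0.48, each by 1 probe set.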
